A study of Homo sapiens with 24 samples.

Results

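ACHN, a human renal cancer line that the labels give as ccRCC, was compared with HK-2, a line of immortalized human proximal tubule cells, in the control libraries of a study on the histone demethylase KDM5C and the transcription factor YY1. The comparison rested on 6 of the 24 RNA-seq libraries of the series, 3 of ACHN and 3 of HK-2, chosen by their labels alone, and asked which genes the lines read differently before any knockdown. Both lines carried the same control hairpin (shNC), delivered by lentivirus from pLKO.1 with puromycin selection, and both were grown in DMEM with 10% fetal bovine serum. The other 18 libraries carried hairpins against KDM5C (shKDM5C), against YY1 (shYY1) or against both (double knockdown), again 3 per line and group. Each side is 1 cell line, so a difference here is between ACHN and HK-2 and not between renal cancer and kidney in general. Whatever separated the handling of the lines cannot be told apart from the line. The replicates are not stated to come from separate cultures, so p-values measure only the spread between these libraries.

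The proximal tubule is the part of the nephron that takes back most of what the glomerulus filters, through carriers and endocytic receptors on its brush border, and clear cell and papillary renal carcinomas are thought to arise from it. Tubule cells grown on plastic are known to lose much of this transport programme while keeping the PAX transcription factors that mark kidney epithelium. HK-2 cells were immortalized with papillomavirus E6 and E7. Clear cell tumours are known for loss of VHL, which leaves hypoxia-inducible factors active, and renal tumours of several kinds lose the short arm of chromosome 9, where the inhibitors CDKN2A and CDKN2B lie.

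The ACHN libraries held 18583347 to 19167245 counts on genes and the HK-2 libraries 17350209 to 18755684. Levels are given below in CPM, the counts of a gene scaled to a common library size with TMM factors, as replicate 1, 2 and 3 of each line, and differences as log2 ACHN minus HK-2, so that a positive value is higher in ACHN. A gene was called when its edgeR quasi-likelihood test had a Benjamini-Hochberg adjusted p under 0.05 and its log2 difference was at least 1.5 in size. The replicates of the lines did not overlap for any of the list genes named below as called. For those named for the size of their difference, this was a condition of naming, and it held for 78.2% of all genes tested. Where a line had no count, the fold was bounded with 3 counts in total over its libraries. Transcripts of the mitochondrial genome took 7.15 to 7.40% of the counts in ACHN and 5.14 to 5.52% in HK-2, and ribosomal protein genes 4.08 to 4.24% and 3.07 to 3.26%; their part in the results below was not tested. Markers of blood and endothelial cells summed to 4.99 to 6.83 CPM in ACHN and 18.6 to 19.5 CPM in HK-2. The preset markers PTPRC and CDH5 were at 0 to 0.21 CPM in every library, while the preset endothelial marker PECAM1 was called lower in ACHN (log2 difference -3.15). Of the 20 markers on that list, 5 were tested, with 1 called higher and 4 lower, and none reached 10 CPM in either line. In bulk RNA, fewer cells of a type and less RNA per cell cannot be told apart.

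Of the 16988 genes tested, 1932 (11.4%) were called higher in ACHN and 1682 (9.9%) lower, 3614 (21.3%) in all. Among protein-coding genes, 2629 of 13576 were called (19.4%). With replicates this close (Pearson r of log2 CPM across genes 0.995 to 0.997 within a line and 0.877 to 0.878 between lines), the adjusted p alone was passed by 13012 genes (76.6%), of which 6565 (38.6%) were higher and 6447 (38.0%) lower, and the replicates of the lines did not overlap for 13289 genes (78.2%). Small differences are therefore the rule here, and the calls below rest on the fold as well. Calls within gene lists are to be read beside the shares of all genes tested, 11.4% higher and 9.9% lower. The median difference over all genes tested was 0.02.

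**Figure D1:**
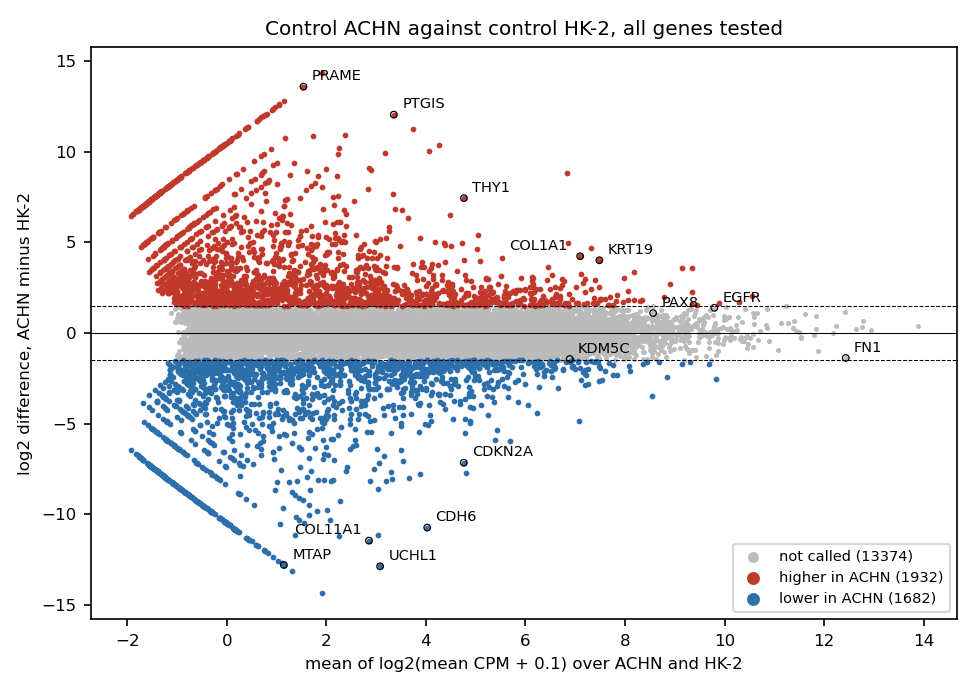
Each point is 1 of the 16988 genes tested, with the mean of its log2(mean CPM + 0.1) in both lines on the x axis and its fitted log2 difference (ACHN minus HK-2) on the y axis; dashed lines mark 1.5 on either side of 0. The 1932 genes called higher in ACHN (red) and the 1682 called lower (blue) lie at every level of expression, and the straight lines of points at the left edges are genes with no or few counts in 1 of the lines.

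The targets of the study's hairpins were both read less in ACHN, though under the fold limit. KDM5C, which removes methyl groups from lysine 4 of histone H3, stood at 72.3, 72.3 and 71.4 CPM in ACHN and 195, 193 and 198 CPM in HK-2, a log2 difference of -1.44 ± 0.04 (SE) with an edgeR adjusted p of 2.8e-22. YY1, a zinc finger factor that can activate or repress, had 137, 141 and 146 CPM in ACHN and 216, 217 and 204 CPM in HK-2, a log2 difference of -0.59. The lines did not overlap for either gene, and neither was called. Of the 5 of 6 genes tested on the list of the targets and their paralogs, 1, the YY1 relative YY2, was called, lower in ACHN.

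The kidney marker PAX8 was strong in both lines, while several carriers and receptors of a working proximal tubule were near 0 in both and other tubule genes were read. PAX8, which specifies the kidney lineage, had 545, 556 and 560.0 CPM in ACHN and 250.0, 266 and 259.8 CPM in HK-2, higher in ACHN by a log2 difference of 1.10 but not called. Its relative PAX2, active in the developing and the injured tubule, was called higher, at 27.6, 28.6 and 29.5 CPM in ACHN and 9.89, 8.13 and 11.7 CPM in HK-2. Both factors, which mark kidney epithelium, were thus read in both lines.

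HNF4A, which drives the mature proximal tubule programme, was at 0.16, 0 and 0.0551 against 0.225, 0 and 0 CPM (ACHN against HK-2). The endocytic receptor LRP2 (megalin), the phosphate carrier SLC34A1, the organic anion carrier SLC22A6, the water channel AQP1 and the brush border peptidase ANPEP reached at most 0.735 CPM in either line. LRP2's partner CUBN was called higher on 0.799, 0.823 and 0.717 against 0.449, 0.0565 and 0.21 CPM, a call that was lost without HK-2 replicate 2 (log2 difference 1.23). These carriers and receptors were thus near 0 in both lines, while other genes of the proximal tubule list, given below, were read in HK-2. Of the markers UMOD, SLC12A1, SLC12A3 and AQP2 of other nephron segments, SLC12A3 alone passed 1 CPM.

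Other genes of the proximal tubule list were read, and some of them set the lines apart. GGT1, which breaks down glutathione outside the cell, was called lower in ACHN at 73.1, 72.01 and 70.7 CPM in ACHN and 216, 194 and 205 CPM in HK-2. Its log2 difference of -1.51 lay at the edge of the fold limit. It was -1.49 without ACHN replicate 3 and -1.48 without HK-2 replicate 1, and so not called. The dipeptidase DPP4 had 102, 97.9 and 99.1 CPM in ACHN and 157, 152 and 154 CPM in HK-2 and was not called. MME (neprilysin, also CD10) was called lower at 1.17, 1.26 and 1.16 against 17.6, 17.9 and 17.3 CPM. The drug efflux pump ABCB1 stood at 7.78, 9.001 and 9.04 against 133, 139 and 132 CPM, a log2 difference of -3.97 ± 0.07 (SE). In the other direction DAB2, an adaptor of megalin endocytosis, was called higher at 67.4, 64.9 and 62.3 against 15.1, 18.5 and 16.9 CPM, and the dicarboxylate carrier SLC13A3 at 15.2, 12.8 and 12.7 against 0.281, 0.169 and 0.368 CPM. In all, 6 genes of the proximal tubule list reached 10 CPM in ACHN and 10 in HK-2, and the list summed to 455 to 468 CPM in ACHN and 699 to 728 CPM in HK-2. Over this list of transport and metabolism, 20 of 35 genes were tested, of which 6 were called higher, 8 lower and 6 not, with a median difference of -0.38 beside 0.02 for all genes.

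Developmental factors of the kidney also set the lines apart. SIM1, a factor of the early nephron, had 106, 103 and 99.1 CPM in HK-2 and 0.16, 0 and 0.0551 CPM in ACHN. SALL1, which keeps nephron progenitors, was called lower at 9.85, 9.99 and 11.1 against 76.97, 83.2 and 86.5 CPM, and TFAP2A, of the distal nephron, at 12.7, 13.9 and 13.6 against 91.8, 97.6 and 95.8 CPM. POU3F3 (BRN1), which patterns the loop of Henle, was called higher, at 20.5, 21.95 and 21.99 CPM in ACHN and 0, 0 and 0.158 CPM in HK-2. None of the replicates overlapped for these genes, which was a condition for naming them. Each call recurred, in the same direction, between the lines in all 3 knockdown groups. For SIM1 the log2 differences were -10.72 in the shKDM5C libraries, -13.56 in the shYY1 libraries and -7.60 in the double-knockdown libraries. Of 21 kidney transcription factors tested, 3 were called higher and 10 lower, 61.9% called beside 21.3% of all genes tested. Their median was -0.64. Without HK-2 replicate 2, 1 was called higher, PAX2 then differing by 1.40.

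Of 11 genes of other nephron segments tested, 6 were called higher and 2 lower. The tight junction gene CLDN16 had 172, 181 and 167 against 33.9, 31.3 and 30.9 CPM. The podocyte genes SYNPO (429, 423 and 427 against 76.3, 71.8 and 74.1 CPM) and PODXL (45.01, 43.5 and 42.2 against 11.9, 10.96 and 12.1 CPM) were also higher. The kidney cadherin CDH16 (25.4, 25.9 and 24.03 against 79.6, 75.7 and 84.7 CPM) and the sodium channel subunit SCNN1A (5.33, 4.83 and 5.90 against 50.96, 45.4 and 45.6 CPM) were lower.

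Against its label, ACHN did not show the markers of clear cell carcinoma. CA9, the carbonic anhydrase that VHL loss induces, had 0.107, 0.165 and 0.11 CPM in ACHN and 0.73, 0.791 and 0.84 CPM in HK-2. NDUFA4L2, another target of hypoxia-inducible factors, had 1.12, 1.92 and 1.32 CPM in ACHN and 1.12, 1.13 and 0.998 CPM in HK-2, and EGLN3, a prolyl hydroxylase induced by the same factors, was called lower at 1.76, 0.933 and 1.60 against 8.93, 9.49 and 8.24 CPM. VHL itself did not pass the test (edgeR adjusted p = 0.579), with 56.4, 54.99 and 56.2 CPM in ACHN and 51.9, 55.2 and 56.4 CPM in HK-2. VEGFA, also a target, was read in both lines, at 122, 119.9 and 121 against 82.5, 76.97 and 91.4 CPM. EPAS1, which encodes HIF-2α, was at 610.1, 613 and 636 against 397, 399 and 375 CPM. Neither was called.

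Of the markers linked to papillary carcinoma, the receptor MET was read at 416, 409 and 416 against 242, 247 and 232 CPM and AMACR at 2.98, 3.40 and 3.14 against 2.98, 3.05 and 2.05 CPM. KRT7 was called lower, at 7.56, 7.13 and 6.45 against 118, 124 and 120.1 CPM. Among 28 renal carcinoma genes tested, 1 was called higher and 3 lower, 14.3% called beside 21.3% of all genes tested. The tumour suppressors PBRM1 (-0.11), SETD2 (-0.21), BAP1 (-0.08) and FH (-0.23) all had log2 differences far under the limit. The calls were CDKN2B, CDKN2A, MTAP and the lipoprotein receptor SCARB1 (67.3, 70.4 and 66.6 against 306, 286 and 301 CPM).

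The hypoxia and glycolysis list had 2 of 39 called higher and 6 lower, 20.5% called beside 21.3% of all genes tested. Its median was -0.51, with 26 of 39 lower at any fold. The glucose carrier SLC2A3 was lower at 12.3, 13.995 and 14.3 against 112, 106 and 107 CPM. The glycolytic regulator PFKFB3 (144, 135 and 149 against 513, 495 and 519 CPM) and the kinase PDK3 (5.54, 4.50 and 4.19 against 15.96, 16.04 and 14.6 CPM) were lower too. The vasodilator peptide ADM was higher at 10.8, 11.7 and 12.5 against 4.55, 3.11 and 4.25 CPM. That call was lost without HK-2 replicate 2 (log2 difference 1.40), which left 1 gene higher.

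**Figure D2:**
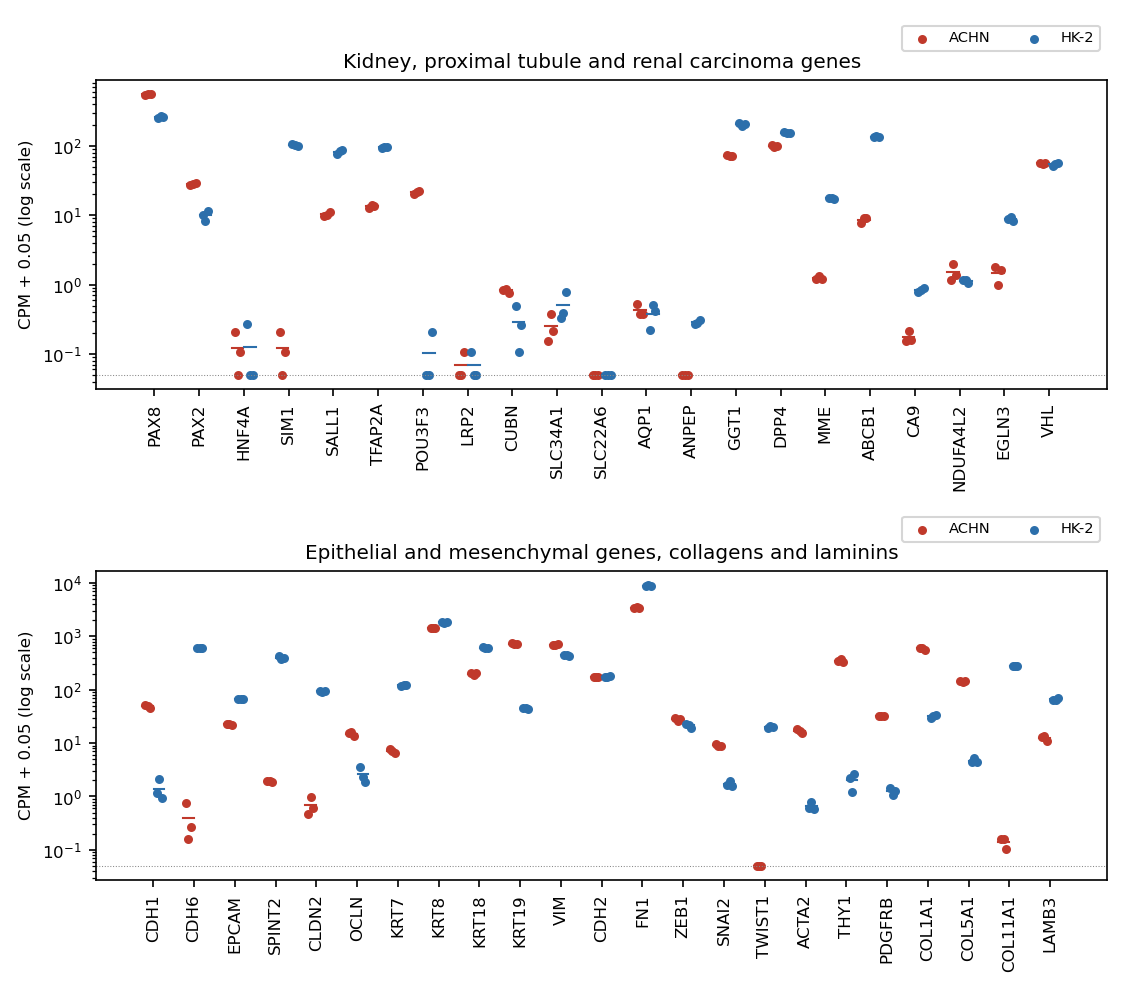
The upper panel shows kidney, proximal tubule and renal carcinoma genes and the lower panel epithelial, mesenchymal and matrix genes; each point is 1 control library (ACHN red, HK-2 blue), the short bar is the mean of 3, and the y axis is CPM + 0.05 on a log scale with the dotted line at 0 CPM. PAX8 was high in both lines, LRP2, SLC22A6 and HNF4A lay at the floor in both, and SIM1, CDH6, TWIST1 and COL11A1 were read in HK-2 at levels far from those of ACHN.

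Epithelial genes leaned towards HK-2, with single genes far to either side. Of 34 tested, 6 were called higher in ACHN and 10 lower, with 10 higher and 21 lower at any fold and a median of -0.67, and the list summed to 1583 to 1597 CPM in ACHN and 3023 to 3062 CPM in HK-2. E-cadherin (CDH1), the cadherin of epithelial junctions, was called higher in ACHN at 50.6, 49.7 and 46.1 CPM in ACHN and 1.12, 2.03 and 0.893 CPM in HK-2, a log2 difference of 5.18 ± 0.14 (SE). CDH6 (K-cadherin), the cadherin of the developing proximal tubule, went the other way, at 604, 601 and 604 CPM in HK-2 and 0.692, 0.11 and 0.22 CPM in ACHN, a log2 difference of -10.75 ± 0.10 (SE). N-cadherin (CDH2), which tubule cells also carry, differed by -0.02 and did not pass the test, at 174, 174 and 173 against 174, 176 and 179 CPM (edgeR adjusted p = 0.571).

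Other junction genes also went both ways. The tight junction protein OCLN (15.5, 15.97 and 13.7 against 3.54, 2.26 and 1.84 CPM) and the desmosomal plakophilin PKP3 (54.1, 51.2 and 53.96 against 8.32, 9.49 and 7.88 CPM) were called higher in ACHN. The pore-forming claudin CLDN2 of the proximal tubule was called lower at 0.426, 0.933 and 0.551 against 95.4, 90.4 and 93.9 CPM. So were the adhesion molecule EPCAM (22.7, 23.1 and 21.7 against 65.8, 65.7 and 68.3 CPM) and the protease inhibitor SPINT2 (1.92, 1.92 and 1.82 against 427, 381 and 388 CPM). The epithelial regulator GRHL2 was at 0 in every library of both lines, and ESRP1, a splicing factor of epithelia, was called lower at 0.746, 1.21 and 0.496 against 2.47, 2.99 and 3.05 CPM.

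The keratins of simple epithelia differed in their mix. KRT8 was abundant in both lines, at 1459, 1419 and 1435 against 1894, 1797 and 1894 CPM, and not called, while its partner KRT18 was called lower in ACHN at 204, 193 and 201 against 631, 603 and 600.1 CPM and KRT19 higher at 734, 719 and 703 CPM in ACHN and 45.004, 45.8 and 42.7 CPM in HK-2, a log2 difference of 4.01 ± 0.04 (SE). The basal keratins KRT5 and KRT14 were at 0 in every library. Of 10 of 35 keratins that could be tested, 2 were called higher and 2 lower.

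Of 26 mesenchymal genes tested, 8 were called higher in ACHN and 3 lower, while at any fold 13 were higher and 11 lower, with a median of 0.21. The summed level went the other way, at 8835 to 9095 CPM in ACHN and 12950.2 to 13174 CPM in HK-2, where most of it came from FN1. FN1 was not called and differed by more CPM than the sums did. THY1 (CD90), a surface protein of stromal cells, had 342, 376 and 337 CPM in ACHN and 2.19, 1.19 and 2.63 CPM in HK-2. PDGFRB, a receptor of pericytes and fibroblasts, stood at 32.4, 32.2 and 32.3 against 1.40, 1.02 and 1.21 CPM. Smooth muscle actin ACTA2 was at 18.1, 16.8 and 15.4 against 0.562, 0.734 and 0.525 CPM and the repressor of E-cadherin SNAI2 at 9.59, 8.78 and 8.87 against 1.57, 1.92 and 1.52 CPM. On the other side TWIST1, a driver of the mesenchymal state, had 19.5, 20.6 and 19.8 CPM in HK-2 and 0 CPM in all 3 ACHN libraries, at least 367-fold lower in ACHN. The proteoglycan LUM had 11.5, 11.6 and 9.03 CPM in HK-2 and 0 CPM in all 3 ACHN libraries. Tenascin TNC was lower at 20.9, 16.6 and 20.6 against 71.9, 73.2 and 69.5 CPM. Vimentin (VIM, 686, 681 and 709 against 447, 453 and 422 CPM), ZEB1 (29.5, 26.2 and 28.8 against 22.9, 21.97 and 19.3 CPM) and fibronectin (FN1, 3364, 3605 and 3322 against 8738, 9108 and 8953 CPM) passed the adjusted p but not the fold.

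Different collagens were high in each line. COL1A1, of fibrillar collagen I, was called higher in ACHN at 605, 615 and 564 CPM in ACHN and 30.002, 31.6 and 33.1 CPM in HK-2, a log2 difference of 4.23 ± 0.05 (SE), as were the fibril regulators COL5A1 (148, 141 and 148 against 4.44, 5.14 and 4.41 CPM) and COL5A2 (19.5, 23.7 and 21.2 against 1.91, 2.60 and 2.73 CPM). COL11A1, the cartilage type that also marks tumour stroma, had 280.3, 273 and 273 CPM in HK-2 and 0.107, 0.11 and 0.0551 CPM in ACHN, and COL14A1 was called lower at 11.98, 11.7 and 9.09 against 149.9, 146 and 164 CPM. The summed level of the list was nearly the same in both lines, 11444 to 11877 CPM in ACHN and 11352 to 11976 CPM in HK-2. Of 35 genes, 7 were called higher and 6 lower, 37.1% called beside 21.3% of all genes tested. The laminin chain LAMB3 (12.8, 13.4 and 10.7 against 63.7, 64.3 and 69.6 CPM) was called lower, while the chain LAMA3 was not (103, 105 and 101 against 116, 107 and 108 CPM). COL4A1, of the basement membrane, was read at 3029, 3064 and 2973 against 2049.8, 2006 and 2031 CPM and not called.

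Integrins, the receptors for these proteins, were called higher in 7 of 18 and lower in 2, with a median of 0.69. ITGA4, whose product binds fibronectin and VCAM1, had 83.8, 93.5 and 89.1 against 1.97, 2.65 and 2.36 CPM. The collagen receptor subunit ITGA11 had 22.1, 21.9 and 21.8 against 0.0562, 0.282 and 0.0525 CPM, and the leukocyte subunit ITGB2 80.5, 86.4 and 77.2 against 10.7, 10.7 and 11.5 CPM. ITGB3 (9.59, 8.34 and 8.54 against 62.1, 59.01 and 67.3 CPM) and ITGB8 (21.04, 21.8 and 21.3 against 111, 122 and 111 CPM), both of RGD-binding integrins, were lower.

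Among matrix proteases and their inhibitors, 6 of 25 were called higher and 7 lower, 52% called beside 21.3% of all genes tested. The protease inhibitor SERPINE2 was called lower at 8.63, 9.44 and 9.43 CPM in ACHN and 107, 108 and 97.2 CPM in HK-2. The plasminogen activator PLAU was at 139, 143 and 140.2 against 256, 252 and 267 CPM and its receptor PLAUR at 19.4, 18.6 and 18.7 against 12.7, 12.3 and 11.9 CPM, neither called. Matrilysin (MMP7), a tubule injury product, had 64.7, 64.5 and 64.7 CPM in HK-2 and 0.213, 0.549 and 0.22 CPM in ACHN. MMP16, a membrane-type protease, was lower at 0.746, 0.823 and 0.717 against 26.5, 30.3 and 26.5 CPM, and MMP11 (13.7, 11.03 and 11.9 against 3.26, 4.63 and 3.62 CPM) and ADAMTS1 (163, 166 and 165 against 30.1, 28.5 and 25.1 CPM) were higher.

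A run of neighbouring genes on the short arm of chromosome 9 had no count in any ACHN control library. MTAP, the methionine salvage enzyme at chr9:21802543-21937651 (GRCh38, plus strand), had 45.9, 51.9 and 49.2 CPM in HK-2 and 0 CPM in all 3 ACHN libraries, at least 901-fold lower in ACHN. The same held for KLHL9, an adaptor of a ubiquitin ligase (29.5, 33.3 and 30.7 CPM in HK-2), FOCAD, a focal adhesion protein (41.1, 41.7 and 42.5 CPM), and MLLT3, a reader of histone acylation (28.9, 30.3 and 27.5 CPM). From the start of MLLT3 to the end of MTAP (chr9:20341665-21937651), no protein-coding gene had a count in ACHN, against totals over the 3 HK-2 libraries of 1574 for MLLT3, 2281 for FOCAD, 28 for HACD4, 1699 for KLHL9, 23 for IFNE and 2674 for MTAP. The other interferon genes between them had no count in HK-2 either, and so tell nothing.

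The run ended abruptly on the telomere side and not on the other. The next genes towards the telomere were read in ACHN. RRAGA, an mTORC1 regulator, was at 73.5, 67.7 and 69.7 against 36.9, 39.9 and 33.97 CPM, and the ribosomal gene RPS6 at 796, 814 and 801 against 463, 459.6 and 490.2 CPM. SLC24A2, a sodium and calcium exchanger next to MLLT3, had 10.2, 11.8 and 11.3 CPM in ACHN and 0 CPM in all 3 HK-2 libraries. On the centromere side CDKN2A, which encodes the p16 and ARF inhibitors, had 2.40, 2.20 and 2.04 CPM in ACHN and 346, 295 and 314 CPM in HK-2, a log2 difference of -7.16 ± 0.08 (SE). CDKN2B, which encodes p15 and lies next to it, was called higher in ACHN, at 50.5, 52.3 and 53.7 CPM in ACHN and 17.4, 18.7 and 16.96 CPM in HK-2. Further on, DMRTA1 (9.32, 9.001 and 8.65 against 31.2, 33.8 and 33.3 CPM) and TUSC1 (10.2, 10.6 and 10.1 against 34.3, 25.6 and 30.9 CPM) were called lower but read. ELAVL2, a neuronal RNA-binding protein, had 8.37, 9.77 and 5.99 CPM in HK-2 and 0 CPM in all 3 ACHN libraries. CAAP1 (33.9, 31.7 and 30.8 against 27.2, 26.7 and 25.04 CPM) and PLAA (38.2, 43.1 and 43.9 against 34.9, 40.6 and 38.3 CPM) were not called. Whether the sequence was missing from the ACHN genome was not measured.

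**Figure D3:**
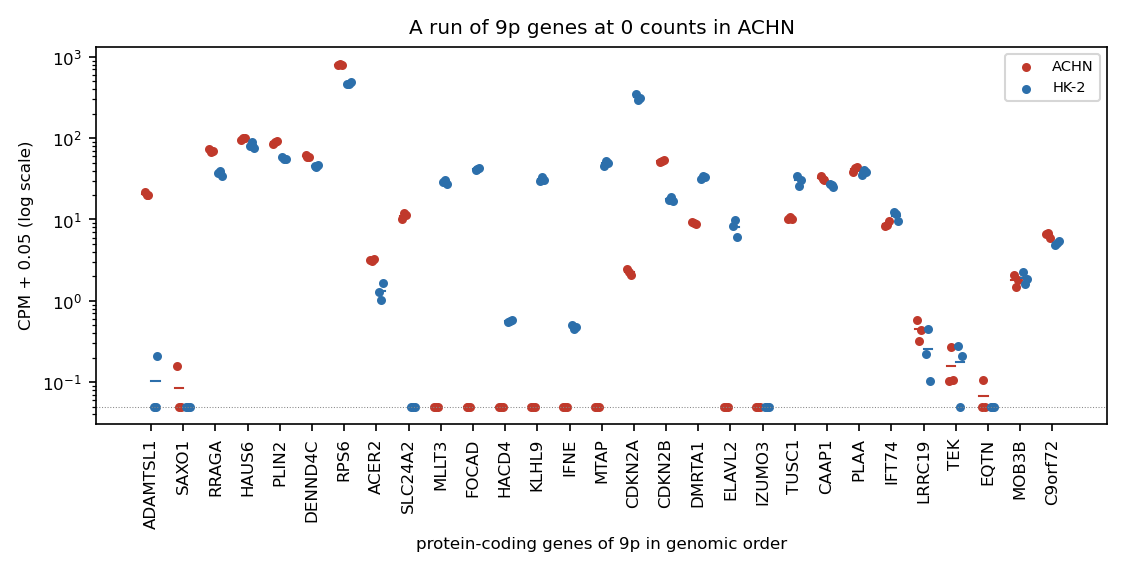
Protein-coding genes of 9p from ADAMTSL1 to C9orf72 are in genomic order on the x axis (interferon alpha, beta, omega and kappa genes left out), with 1 point for each control library (ACHN red, HK-2 blue), bars at the mean of 3, and CPM + 0.05 on a log scale on the y axis. From MLLT3 to MTAP every ACHN point lies on the dotted line of 0 CPM, while CDKN2B is higher in ACHN than in HK-2.

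Genes of the cell cycle were slightly lower in ACHN as a group, with few calls. Beside 38.0% of all genes tested, 34 of 43 S phase genes were lower at any fold. Beside 21.3% of all genes tested, 3 of the 43 (6.98%) were called, all lower. They were the polymerase subunit POLA1 (27.96, 26.6 and 28.7 against 101, 99.1 and 102 CPM), the cohesion factor DSCC1 (11.7, 12.2 and 11.8 against 40.4, 39.6 and 38.6 CPM) and cyclin E2 (CCNE2, 5.97, 7.03 and 5.79 against 20.5, 18.9 and 18.2 CPM). Of 54 G2/M genes 41 were lower at any fold and 7 higher, and 0 were called under the fold rule by edgeR or by DESeq2, while at an unadjusted p under 0.05, 41 were lower and 8 higher. The medians were -0.50 and -0.42. Among cyclins, kinases and inhibitors, 1 of 31 was called higher and 5 lower, 19.4% called beside 21.3% of all genes tested. Cyclin D2 (CCND2) was called lower at 0.107, 0.659 and 0.22 against 30.8, 38.1 and 34.7 CPM and the inhibitor CDKN1C at 2.61, 2.03 and 1.98 against 17.8, 15.8 and 20.5 CPM. Cyclin D1 (CCND1, 151, 157 and 151 against 88.4, 103 and 89.6 CPM), CDK6 (247, 252 and 267 against 232, 259 and 237 CPM) and RB1 (98.8, 101 and 101 against 93.3, 92.4 and 91.2 CPM) were not called.

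Ligands of the EGF receptor went both ways. The receptor EGFR had 1410.2, 1445 and 1459 CPM in ACHN and 529, 576 and 544 CPM in HK-2, a log2 difference of 1.39 ± 0.03 (SE), under the fold limit. Its ligand epiregulin (EREG) had 121, 140.1 and 123 CPM in HK-2 and 1.28, 0.988 and 0.606 CPM in ACHN, a log2 difference of -7.05 ± 0.11 (SE), and amphiregulin (AREG) was called lower at 2.88, 2.20 and 2.70 against 43.2, 48.3 and 41.6 CPM. Of the other ligands, chosen after their values were seen, TGFA was called higher at 101, 101 and 98.997 against 31.7, 36.7 and 31.97 CPM, and EGF (2.61, 2.36 and 2.43 against 6.24, 5.08 and 4.10 CPM), HBEGF (11.6, 11.6 and 12.6 against 29.9, 27.5 and 30.3 CPM) and BTC (5.86, 6.59 and 5.35 against 3.93, 3.33 and 3.62 CPM) were not called. The related receptor ERBB3 was called higher at 26.4, 26.8 and 27.5 against 6.80, 7.62 and 7.35 CPM, and its ligand NRG1 was at 177, 174 and 182 against 125, 129 and 123 CPM. GAS6, the ligand of AXL, was called higher at 314, 309 and 297 against 25.96, 24.6 and 24.4 CPM, beside an AXL level of 402, 388 and 380.4 against 413, 407 and 412 CPM. PDGFB (188, 182 and 179 against 34.7, 33.04 and 32.7 CPM) and its receptor PDGFRB, given above, were both called higher. The insulin receptor INSR had 1.70, 1.37 and 1.10 CPM in ACHN and 31.01, 31.5 and 30.9 CPM in HK-2, called lower. In all, 10 of 45 receptor tyrosine kinases and ligands were called higher and 7 lower, 37.8% called beside 21.3% of all genes tested.

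Of 26 cytokines and chemokines tested, 1 was called higher, 10 lower and 15 not, with 7 higher and 14 lower at any fold. Of the chemokines that draw neutrophils, CXCL8 (4.79, 5.49 and 4.08 against 76.2, 93.9 and 94.5 CPM) and CXCL5 (0.107, 0.11 and 0 against 53.1, 67.5 and 53.8 CPM) were called lower. CXCL1 was the gene called higher, at 29.3, 32.99 and 26.95 CPM in ACHN and 0, 0.113 and 0.368 CPM in HK-2. IL6 (13.7, 13.8 and 14.5 against 9.61, 8.64 and 9.03 CPM), LIF (186, 178 and 184 against 99.4, 99.2 and 101 CPM) and CCL2 (10.1, 11.3 and 11.3 against 5.90, 6.72 and 9.19 CPM) were read in both lines and not called, and IL1B was under 1 CPM in every library. Without HK-2 replicate 2, 2 genes of the list were called higher.

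Interferon-stimulated genes divided. CGAS, the sensor of cytosolic DNA, had 59.6, 56.5 and 55.6 CPM in HK-2 and 0, 0.0549 and 0 CPM in ACHN. BST2 (tetherin) was called lower at 0.639, 0.384 and 0.661 against 158, 138 and 161 CPM and IFITM1 at 0.0533, 0.439 and 0.22 against 13.1, 12.6 and 12.1 CPM. IFITM2, which like IFITM1 blocks virus entry, was called higher at 37.6, 35.8 and 35.1 against 0.281, 0.0565 and 0.578 CPM. The RNA sensor IFIH1 (19.6, 18.7 and 18.7 against 3.31, 1.81 and 2.99 CPM) and the effectors MX1 (13.8, 15.97 and 15.2 against 1.35, 1.64 and 1.05 CPM) and IFIT1 (27.4, 22.8 and 23.4 against 6.63, 5.48 and 6.67 CPM) were also called higher. ISG15 (22.3, 21.8 and 21.1 against 16.2, 13.9 and 17.01 CPM) was not called. On this list, which includes MHC class I, 11 of 42 were called higher and 6 lower.

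Among antigen presentation genes, HLA-B (196, 186 and 190.1 against 127, 125 and 134 CPM) and B2M (609, 628 and 598 against 307, 312 and 314 CPM) were not called. Of class II genes, which professional antigen-presenting cells use, HLA-DRB1 had 17.7, 15.9 and 16.6 CPM in ACHN and 0 CPM in all 3 HK-2 libraries. HLA-DPA1 (14.3, 13.5 and 14.5 CPM), HLA-DPB1 (13.8, 12.2 and 14.2 CPM) and HLA-DQB1 (6.87, 6.31 and 6.95 CPM) were also read in ACHN and at 0 in HK-2. The chain that pairs with HLA-DRB1, HLA-DRA, was at 0 in every library, and the class II regulator CIITA was at 1.12, 0.713 and 0.992 against 1.40, 1.36 and 1.79 CPM and not called. HLA-DMB, which loads peptides, was called lower at 11.7, 12.3 and 13.7 against 72.3, 73.2 and 85.999 CPM. These genes differ between people and between near-identical copies, so reads of 1 allele can be lost or shared when mapped to a single reference, and their levels are uncertain. The class II genes were chosen after their values were seen.

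HOX genes, which give cells their place along the body axis, were higher in ACHN wherever they were called. Of 36 tested, 15 were called higher and 0 lower by edgeR, and 0 lower by DESeq2 (3 lower at an unadjusted p under 0.05), with 27 higher and 3 lower at any fold and a median of 1.10. That was 41.7% called by edgeR, beside 21.3% of all genes tested. HOXC8 had 11.3, 12.6 and 10.6 CPM in ACHN and 0.674, 1.07 and 0.683 CPM in HK-2, HOXC10 31.9, 34.3 and 33.4 against 8.99, 10.3 and 8.93 CPM and HOXD8 17.8, 16.1 and 18.9 against 3.93, 3.73 and 3.62 CPM. The calls covered all but 1 of the 8 HOXC genes tested, the exception being HOXC9 (8.68, 8.84 and 10.7 against 4.49, 3.56 and 3.05 CPM). Within the HOXA cluster the calls were limited to HOXA13 (8.68, 8.78 and 8.38 against 3.60, 2.71 and 2.52 CPM), and the most abundant member by CPM, HOXA9, was at 228, 231 and 241 against 96.5, 91.7 and 92.5 CPM and not called. HOXD13 had 3.99, 4.83 and 3.69 CPM in ACHN and 0 CPM in all 3 HK-2 libraries. HOX genes overlap each other within a cluster, and counting without strand can assign reads to a neighbour or an antisense RNA, or to none.

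Imprinted genes, normally read from 1 parental copy, switched in both directions. The maternally expressed RNA MEG3 had 147, 143 and 138 CPM in ACHN and 0 CPM in all 3 HK-2 libraries, at least 2597-fold higher in ACHN, and the antisense RNA KCNQ1OT1 had 41.9, 43.7 and 42.4 CPM in ACHN and 0 CPM in all 3 HK-2 libraries, at least 776-fold higher. MEST was called higher at 14.4, 16.2 and 15.8 against 0, 0.0565 and 0.473 CPM. NDN (necdin), which restrains growth, had 30.8, 26.9 and 29.1 CPM in HK-2 and 0 CPM in all 3 ACHN libraries, at least 532-fold lower in ACHN, and the zinc finger regulator PLAGL1 was called lower at 0.426, 0.0549 and 0.165 against 59.6, 65.5 and 58.8 CPM. PEG10 was abundant in both at 434, 430.5 and 452 against 548, 567 and 536 CPM, and H19, IGF2 and DLK1 were at most 0.508 CPM. Of 21 tested, 4 were called higher and 8 lower. KCNQ1OT1 lies within KCNQ1 on the opposite strand, so its reads cannot be told from those of its host.

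PRAME was the only cancer-testis gene that could be tested, of 32 matched. This antigen, silent in most adult tissue, had 81.8, 87.6 and 84.4 CPM in ACHN and 0 CPM in all 3 HK-2 libraries, at least 1538-fold higher in ACHN and the largest difference among the protein-coding genes called higher. MAGEA3 and MAGEA4 were at 0 in every library.

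WNT genes were called in both directions. On the WNT list 7 of 36 were called higher and 7 lower, 38.9% called beside 21.3% of all genes tested. The ligand WNT2B (111, 117 and 116 against 3.09, 4.18 and 3.62 CPM) and the receptor ROR2 (9.75, 10.9 and 10.97 against 0 CPM) were higher, and the antagonist SFRP1 had 38.78, 37.6 and 38.6 CPM in ACHN and 0 CPM in all 3 HK-2 libraries. The ligands WNT5A (9.64, 10.8 and 8.82 against 40.96, 42.6 and 43.4 CPM) and WNT7B (1.33, 1.21 and 2.09 against 26.1, 22.9 and 27.4 CPM) and the inhibitor DKK1 (7.56, 7.85 and 7.99 against 28.6, 31.4 and 29.8 CPM) were lower. The feedback target AXIN2, often read as a gauge of the pathway, did not pass the test (1.01, 2.20 and 2.09 against 1.57, 1.92 and 2.26 CPM).

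Of 35 genes of TGF-beta and BMP signalling, 1 was called higher and 6 lower, 20% called beside 21.3% of all genes tested. Among the lower were BMP2 (0.0533, 0.11 and 0.22 against 12.8, 10.96 and 10.3 CPM), the BMP antagonist GREM1 (0.16, 0 and 0.0551 against 48.9, 46.5 and 48.8 CPM) and the BMP target ID3 (11.9, 11.6 and 13.6 against 104, 95.6 and 113 CPM). The ligands TGFB2 (163, 167 and 162 against 125, 138 and 119 CPM) and INHBA (241, 244 and 240.2 against 139, 159 and 156 CPM) were not called. Neither were the receptor TGFBR2 (87.1, 94.9 and 88.8 against 106, 109 and 116 CPM) and the ligand BMP4 (11.3, 12.4 and 11.9 against 26.6, 19.8 and 20.9 CPM). Without ACHN replicate 1, HK-2 replicate 2 or HK-2 replicate 3, 2 genes were called higher in place of 1.

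Of 26 genes of YAP and TEAD, 4 were called higher and 1 lower, 19.2% called beside 21.3% of all genes tested. CRIM1 (1107, 1143 and 1141 against 371, 376 and 377 CPM), the kinase LATS2 (205, 207 and 202 against 63.6, 67.4 and 63.2 CPM) and RBMS3 (53.7, 63.2 and 56.7 against 8.93, 8.75 and 9.45 CPM) were higher. The coagulation initiator F3 was lower at 4.15, 3.29 and 2.92 against 73.99, 86.3 and 80.5 CPM. The standard targets CCN1 (1311, 1314 and 1255 against 537, 554 and 539 CPM) and CCN2 (259, 269.7 and 266 against 111, 119 and 115 CPM) were higher but under the fold limit.

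Sterol and lipid synthesis differed little. On that list 3 of 36 were called, all lower, 8.33% called beside 21.3% of all genes tested. The sterol enzymes EBP (52.2, 48.96 and 47.8 against 168, 161 and 178 CPM) and NSDHL (22.3, 23.3 and 21.5 against 76.2, 67.2 and 73.7 CPM) were among them. HMGCS1 (115, 117 and 122 against 179, 187 and 176 CPM), an enzyme of the early sterol pathway, was not called. Nor were the fatty acid enzymes FASN (1096, 1027 and 1089 against 1335, 1236 and 1259 CPM) and SCD (1544, 1531 and 1588 against 2985, 2988 and 2979.5 CPM).

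Of 30 genes of the NRF2 response and glutathione, 5 were called higher and 2 lower, 23.3% called beside 21.3% of all genes tested. The quinone reductase NQO1 was higher at 293, 284 and 292 against 91.6, 91.2 and 93.5 CPM. The exporter ABCC3 (176, 172 and 164 against 30.3, 28.6 and 28.8 CPM) and the transferase GSTM3 (59.3, 60.4 and 62.3 against 17.9, 19.9 and 21.8 CPM) were higher too. The secreted peroxidase GPX3, a proximal tubule product, was lower at 10.8, 12.2 and 12.3 against 134, 132 and 139.6 CPM. GCLM (68.5, 75.03 and 76.7 against 48.8, 49.8 and 46.8 CPM) and AKR1C1 (2.56, 2.47 and 2.48 against 1.52, 0.96 and 1.16 CPM) were not called. Without ACHN replicate 2 or without HK-2 replicate 1, 1 gene of this list was called lower in place of 2.

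Markers of an injured tubule were called lower in ACHN more often than higher, 6 of 20 against 1. In all, 35% were called beside 21.3% of all genes tested. Lipocalin LCN2 (1.81, 1.87 and 1.49 against 22.5, 23.9 and 22.6 CPM) and the repair factor SOX9 (0.852, 1.26 and 1.76 against 27.3, 26.1 and 32.4 CPM) were called lower. So were the adhesion molecules ICAM1 (1.07, 1.43 and 0.992 against 102, 98.5 and 106 CPM) and VCAM1 (0, 0.11 and 0.22 against 1.97, 2.60 and 1.995 CPM). KIM-1 (HAVCR1), which HK-2 and renal carcinoma cells both carry, was at 248, 227 and 229 against 213, 222 and 212 CPM and not called. Osteopontin (SPP1) had 503, 528 and 503 against 1412, 1409 and 1443 CPM, a log2 difference of -1.48 that lay just under the limit and was called when counts were scaled by library totals. Annexin ANXA1 was higher at 346, 339 and 347 against 92.9, 101 and 89.2 CPM.

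**Figure D4:**
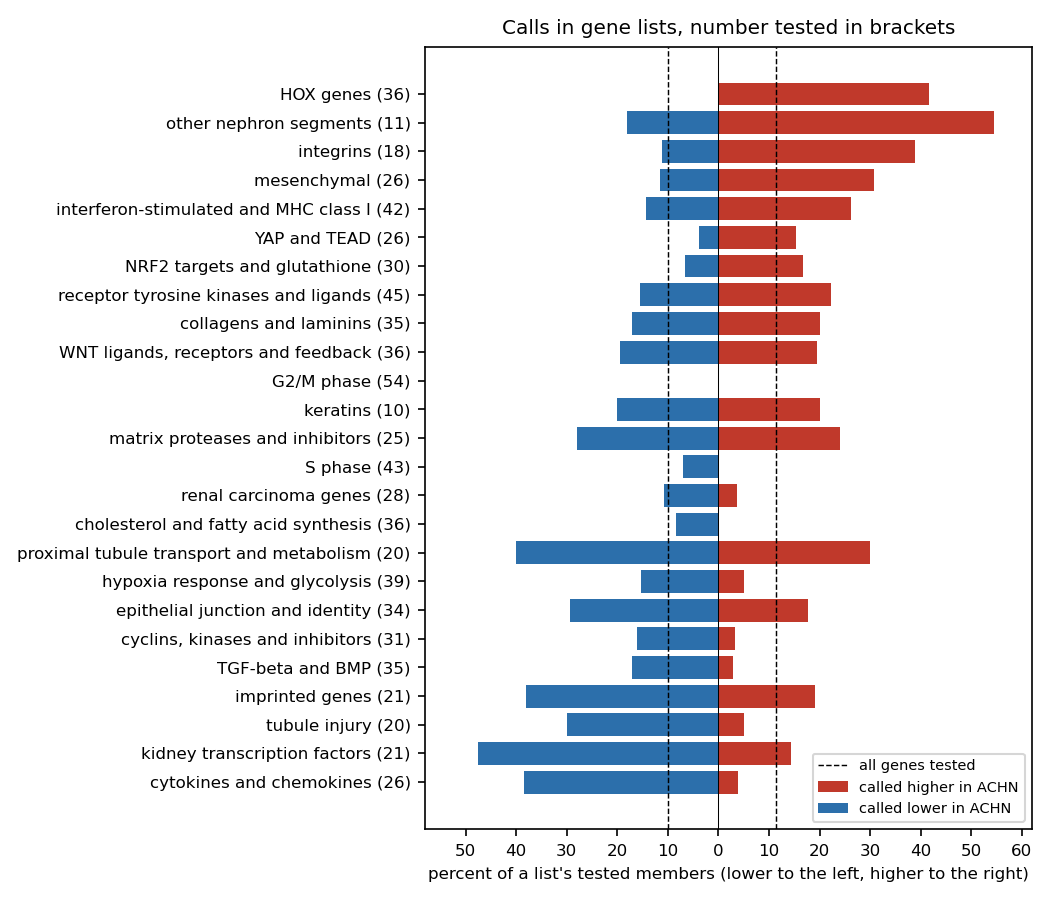
Bars give the percent of each list's tested members called higher in ACHN (red, to the right) and lower (blue, to the left) for the lists shown, each with at least 10 tested members, ordered by the difference, with the number tested in brackets; dashed lines mark 11.4% higher and 9.9% lower over all genes. HOX genes had calls to the right alone, G2/M genes had none, and kidney transcription factors and cytokines leaned to the left.

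Zinc finger genes of chromosome 19 were lower in ACHN without a counterexample among the calls. These genes stand in clusters and encode repressors, many of which bind transposable elements through a KRAB domain. They were taken up after a first look at the differences by chromosome, as protein-coding genes named ZNF, ZFP, ZSCAN or ZKSCAN with a number. Of 229 tested on chromosome 19, 92 (40.2%) were called lower and 0 higher by edgeR, and 0 higher by DESeq2 (11 higher at an unadjusted p under 0.05), with a median difference of -1.13, where 9.21% of all protein-coding genes tested were lower and 10.2% higher. On the other autosomes 23 of 259 zinc finger genes were called lower and 14 higher, with a median of -0.08. Of the 762 other protein-coding genes of chromosome 19, 80 were lower and 59 higher, with a median of -0.25.

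Many of these genes had no count at all. In ACHN, 50 of the 229 had no count in any control library, and 41 of the 229 had none in all 12 ACHN libraries, while in HK-2 each of the 229 had counts. A gene at 0 in 1 line entered the 229 only through its counts in the other. Genes low in both lines did not pass the filter and were left out. On the other autosomes 7 of 259 were at 0 in ACHN and 2 in HK-2. The share called lower was larger from 50 Mb to the end of the chromosome, 51 of 99, than before it, 41 of 130. The other protein-coding genes from 50 Mb leaned the same way, with 19 of 73 (26.0%) called lower and 5 higher and a median of -0.73. ZNF667 had 23.2, 26.1 and 21.8 CPM in HK-2 and 0 CPM in all 3 ACHN libraries, at least 435-fold lower. ZSCAN18 had 23.3, 20.6 and 24.4 CPM in HK-2 and 0 CPM in all 3 ACHN libraries, and ZNF468 16.2, 21.4 and 18.4 CPM in HK-2 and 0 CPM in all 3 ACHN libraries. ZNF426, on the short arm, had 15.8, 19.1 and 18.7 CPM in HK-2 and 0, 0 and 0.0551 CPM in ACHN. By contrast ZNF146, from the same chromosome, had 70.8, 74.9 and 75.8 CPM in ACHN and 81.5, 74.9 and 75.6 CPM in HK-2 and ZNF507 46.8, 47.1 and 51.7 CPM in ACHN and 35.6, 38.6 and 35.5 CPM in HK-2, and neither was called. Members of these clusters are similar in sequence, so reads of 1 may be assigned to another or to none.

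The promoters of these genes (RefSeq, GRCh38.p14, 250 bases before to 50 after the start, on the strand of the gene) were found for 204 of the 229. They are shown for ZNF667 and ZSCAN18, at 0 in ACHN, and for ZNF146, read alike in both lines. The capitals mark CpG, the pair of bases that can carry DNA methylation.
ZNF667 (chr19:56477296-56477595, minus strand): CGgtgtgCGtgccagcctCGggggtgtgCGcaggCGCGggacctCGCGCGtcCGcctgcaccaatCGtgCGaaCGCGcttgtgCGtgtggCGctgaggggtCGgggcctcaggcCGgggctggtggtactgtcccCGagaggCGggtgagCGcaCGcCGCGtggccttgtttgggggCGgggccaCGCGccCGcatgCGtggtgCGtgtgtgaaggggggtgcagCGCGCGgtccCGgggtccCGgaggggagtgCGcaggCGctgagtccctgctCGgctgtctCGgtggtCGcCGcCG
ZSCAN18 (chr19:58118355-58118654, minus strand): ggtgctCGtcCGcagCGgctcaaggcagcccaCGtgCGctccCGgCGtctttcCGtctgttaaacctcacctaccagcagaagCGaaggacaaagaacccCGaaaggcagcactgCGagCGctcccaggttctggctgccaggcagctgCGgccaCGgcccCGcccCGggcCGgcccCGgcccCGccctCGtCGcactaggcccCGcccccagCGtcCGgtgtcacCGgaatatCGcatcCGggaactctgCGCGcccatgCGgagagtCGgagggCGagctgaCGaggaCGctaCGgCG
ZNF146 (chr19:36214856-36215155, plus strand): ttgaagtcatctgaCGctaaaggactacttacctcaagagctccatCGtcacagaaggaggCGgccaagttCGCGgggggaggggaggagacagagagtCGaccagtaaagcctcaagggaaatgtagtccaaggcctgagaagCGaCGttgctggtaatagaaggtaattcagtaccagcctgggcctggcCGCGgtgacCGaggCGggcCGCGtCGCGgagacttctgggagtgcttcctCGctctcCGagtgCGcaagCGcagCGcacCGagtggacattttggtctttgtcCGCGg
The ZNF667 promoter held 42 CpG, that of ZSCAN18 36 and that of ZNF146 24. Among the genes named above but not shown, ZNF468 had 30 and ZNF426 19, both called lower, and ZNF507, not called, had 28. Over the whole set the count of CpG did not set the genes apart: the median was 19 (quartiles 14 and 26) in the 81 promoters found of 92 genes called lower, and 21 (quartiles 16.5 and 26) in the 123 found of 137 genes not called, beside 24.5 for zinc finger genes of other autosomes and 26 for all protein-coding genes tested. DNA methylation was not measured here.

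Whole chromosomes also leaned one way. The median difference was 0.52 for the 1146 genes tested on chromosome 2, 0.45 for chromosome 7 and 0.35 for chromosome 13, and it was -0.57 for the 456 genes of chromosome 20, -0.39 for chromosome 6 and -0.38 for chromosome 19. On chromosome 19 the last window, from 50 Mb, stood out, with a median of -1.21 and 29 of 215 genes above 0, as did the window from 20 to 30 Mb with 11 of 55 above 0. From 50 Mb the lean was shared by zinc finger genes (median -1.54) and other protein-coding genes (median -0.73). The medians of whole chromosomes were small beside the fold limit of 1.5, while those from 50 Mb of chromosome 19 were larger in size. That window was not the most extreme of the genome. Windows with fewer genes on other chromosomes had larger medians in size. Bases 1 to 10000000 of chromosome 21 had a median of -2.32, with 4 of 20 genes above 0. Bases 70000001 to 80000000 of chromosome 9 had a median of 1.90, with 27 of 31 genes above 0. Copy number was not measured.

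**Figure D5:**
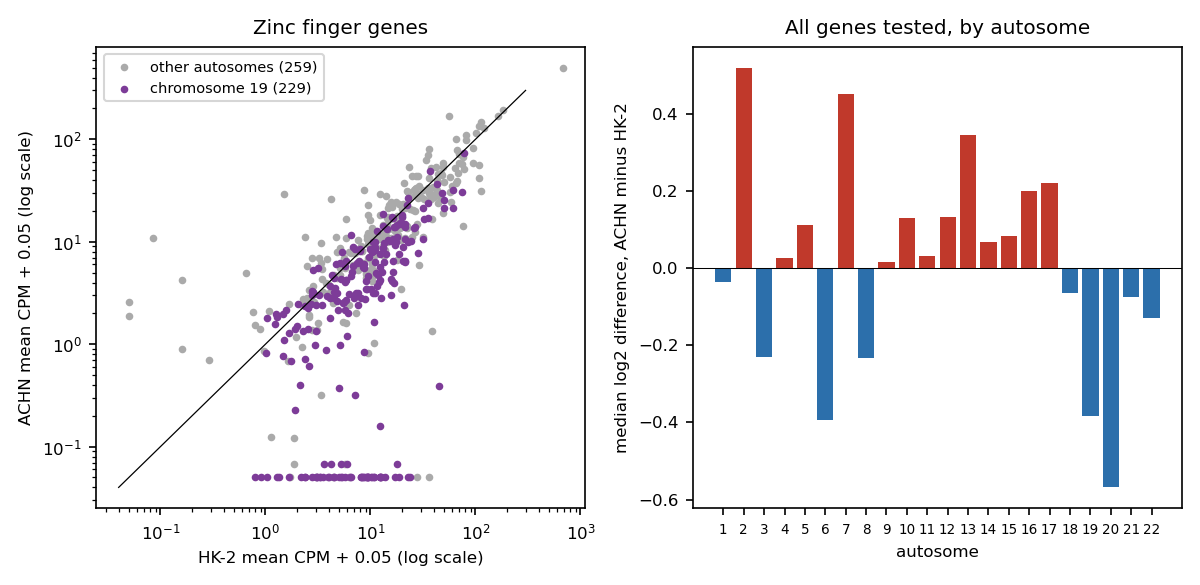
The left panel plots the mean CPM + 0.05 of each tested zinc finger gene in HK-2 (x axis) and ACHN (y axis), both on a log scale, with chromosome 19 in purple (229) and other autosomes in grey (259) and a line of equality; the purple row at the bottom holds genes with no count in ACHN. The right panel gives the median log2 difference (ACHN minus HK-2) of all genes tested on each autosome, from -0.57 on chromosome 20 to 0.52 on chromosome 2.

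Some protein-coding genes were read in 1 line alone. With a mean of at least 10 CPM in 1 line and at most 3 counts in each library of the other, 54 genes were read in ACHN and 63 in HK-2. Besides PRAME, the 10 largest differences upward included EMC10, a subunit of the complex that inserts membrane proteins into the endoplasmic reticulum, with 48.2, 49.9 and 50.99 CPM in ACHN and 0 CPM in all 3 HK-2 libraries. COBL, an actin nucleator, had 42.1, 42.7 and 44.1 CPM in ACHN. The RAC activator PREX1 had 35.2, 37.4 and 35.7 CPM and the neurotrophin NTF3 30.2, 30.9 and 29.8 CPM. All 4 were at 0 in HK-2. Prostacyclin synthase PTGIS, the most abundant of the 10 by CPM, had 491, 517 and 480.3 CPM in ACHN and 0.0562, 0.226 and 0.0525 CPM in HK-2. SFRP1, COLEC10, NACAD and ITIH5 completed them, each at 0 in HK-2 and with a fold of at least 520.4.

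Downward, the 10 largest were led by GLB1L2, a galactosidase-like protein, with 59.05, 58.6 and 65.2 CPM in HK-2 and 0 CPM in all 3 ACHN libraries, at least 1122-fold lower in ACHN. The neuronal deubiquitinase UCHL1 was the most abundant of them, with 459.8, 466 and 462 CPM in HK-2 and 0, 0.11 and 0.0551 CPM in ACHN. The homeobox gene IRX4 had 45.2, 46.5 and 46.5 CPM in HK-2. The zinc finger genes ZNF736, of chromosome 7, and ZNF518B, of chromosome 4, had 35.1, 38.6 and 35.2 CPM and 27.8, 28.01 and 27.9 CPM. All 3 were at 0 in ACHN. MTAP, FOCAD, KLHL9, MLLT3 and NDN, described above, were the others, so that 4 of the 10 came from the 9p run. Of the 63 genes read in HK-2, 17 carried a zinc finger name.

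The 18 knockdown libraries, which the control comparison did not use, gave the same differences for most of these genes. Of the 54 genes read in ACHN, 52 had the same call between the lines in all 3 knockdown groups, and 41 had at most 3 counts in each of the 9 HK-2 knockdown libraries. Of the 63 read in HK-2, 63 had the same call in all 3 and 47 had at most 3 counts in each of the 9 ACHN libraries. For PRAME the log2 differences were 13.72 in the shKDM5C libraries, 13.83 in the shYY1 libraries and 11.36 in the double-knockdown libraries, and for EMC10 10.74 in the shKDM5C libraries, 10.74 in the shYY1 libraries and 13.88 in the double-knockdown libraries.

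Over all calls the agreement was lower. In these groups 22.6% (shKDM5C), 23.7% (shYY1) and 22.7% (double knockdown) of the genes tested were called between the lines. Of the 1932 genes higher in the controls, 1256 had the same call under shKDM5C, 1440 under shYY1 and 1138 in the double knockdown, 852 (44.1%) in all 3 and 234 in none, and 18 had an opposite call in at least 1. Of the 1682 lower genes, 1257, 1267 and 1172 had the same call, 894 (53.2%) in all 3 and 164 in none, with 12 opposite. Genes not tested in a group, 136 to 346 per group and direction, count there as not called. In 1 HK-2 shKDM5C library the mitochondrial genome took 11.8% of the counts; without that library, added as an alternative after seeing the data, 1364 and 1318 genes had the same call under shKDM5C. PAX2 was the exception among the kidney factors named, with log2 differences of -1.59 in the shKDM5C libraries, 4.92 in the shYY1 libraries and 1.53 in the double-knockdown libraries. Outside these factors, other named genes also lost their call in some groups, among them the following. Under shKDM5C, CDH1 (0.51), COL1A1 (1.25), KRT7 (-0.55), SERPINE2 (-1.36) and MMP11 (0.46) were not called between the lines. CDH1, COL1A1 and KRT7 had the same call as in the controls under shYY1 and in the double knockdown. MMP11 differed by -0.82 in the double knockdown and was not called. KRT18 (-0.45 and -0.39) and ITGB8 (-0.96 and -0.81) were not called under shYY1 or in the double knockdown. ADM was called lower in the double knockdown (-2.01).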

How the data were processed

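Total RNA was extracted with TRIzol, and libraries were made with the NEBNext Ultra RNA kit. Per the labels and the study's methods, the authors aligned the reads to hg38 with HISAT2 2.0.5 and counted them with featureCounts 1.5.0-p3; the file headers name featureCounts 2.0.1, paired-end mode with no strand option, and Ensembl release 84. The deposited values are raw counts per gene, 1 table per library, for 60675 genes. Without strand, reads of overlapping genes can be assigned to the other gene or to none. Symbols were found for 56558 genes, and the 4117 others held 0.212% of the counts. Groups and replicate numbers came from the titles.

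The deposited counts were fitted here in R 4.3.3 with edgeR 4.0.16 (TMM, filterByExpr, glmQLFit and glmQLFTest) on the 6 control libraries. P-values were adjusted by the Benjamini-Hochberg method across the 16988 genes that passed the filter. On simulated data, 100% of 200 changed genes were called among 15957 and 0 unchanged ones. How often genes near the fold limit or with few counts would be called was not tested. Knockdown groups were fitted separately. The study used DESeq2, which served as an alternative (1.42.0). A test of single values over 3 against 3 libraries cannot go below an exact permutation p of 0.1, so single values carry no test of their own. Counting error is small at these depths for all but the lowest genes.

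The comparison, its 29 gene lists (979 of 981 names matched) and its alternatives were chosen with earlier results of these data known, so list counts are descriptions. Some genes and 1 list are not reported here. Named genes were the lists' preset marker genes, called or not, then up to 3 called genes per list and direction with the largest differences, 10 CPM or more on average in the line reading them more and no overlap between the lines, and the 10 such genes per direction over all protein-coding genes; others are said to be chosen after their values were seen, as were the chromosome 19 zinc finger genes, the genes beside MTAP and the HOX genes beyond 3 examples. Promoters came from RefSeq (GRCh38.p14) by symbol.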

Additional observations from a re-analysis of the deposited data

How the results depend on the processing

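With a log2 limit of 1 in place of 1.5, 2937 genes were called higher and 2647 lower. With a mean of at least 5 CPM in place of 10, 91 genes were read in ACHN alone and 107 in HK-2 alone. The counts of calls moved by less than 1.5 times under DESeq2, other scalings, other filters, a fit of all 24 libraries and leaving out each library in turn, and no gene called here had an opposite call under any of them; DESeq2 called 1915 of the 1932 higher and 1660 of the 1682 lower genes again. Scaling by library totals moved the median of all genes by -0.06. Of the list counts, 734 stayed within 1.5 times and 20 moved, all small counts; under DESeq2, keratins had 4 members lower in place of 2, TGF-beta and BMP 2 higher in place of 1, and the blood and endothelial markers 2 higher in place of 1. Of the named genes, PAX2 (1.47) and ADM (1.49) lost their call when scaled by library totals, where SPP1 gained one (-1.53), GGT1 lost it without a filter (-1.49), and CUBN lost it under DESeq2; the cause was not tested.

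The replicate numbers did not pair the libraries: deviations from the line means correlated at 0.025, 0.00068 and -0.031 for numbers 1, 2 and 3. With the replicate number as a block, 1943 genes were called higher and 1682 lower, and 12843 passed the adjusted p at any fold.

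Depth limited the genes near 0. A line with no count was bounded at 3 counts in total over its libraries, and genes under a few counts could not be tested. The share of mitochondrial and ribosomal protein transcripts differed between the lines, and its part was not tested. Each side was 1 line, with replicates not stated to be separate cultures.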

Other observations

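UCA1, a long noncoding RNA found in urothelial cancer, had the largest difference of any gene called lower in ACHN, and it was chosen here after its values were seen. It had 139, 151 and 140.5 CPM in HK-2 and 0 CPM in all 3 ACHN libraries, at least 2641-fold lower in ACHN, and log2 differences of -15.21, -15.22 and -14.82 between the lines under shKDM5C, shYY1 and the double knockdown. Of 1967 genes annotated as lncRNA that were tested, 349 were called higher in ACHN and 231 lower. Over all genes tested, 11.4% were called higher and 9.9% lower.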
